A study of Mus musculus with 8 samples.

Results

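The comparison described here is between ZsGreen+ and ZsGreen− T follicular helper (Tfh) cells of Peyer's patch, and it rests on 4 of the 8 RNA-seq libraries of the series. The libraries were chosen by their labels alone, as the 2 ZsGreen+ and the 2 ZsGreen− libraries sorted from Peyer's patch. One library of each sort belongs to experiment 1 and one to experiment 2, and the sorts were compared within each experiment. The donors were K/BxN animals, which express a transgenic T cell receptor and develop autoimmune arthritis, and they carried a Th17 fate-mapping reporter. In such mice a cell that has once switched on the Th17 program keeps the fluorescent protein ZsGreen, also after it has left that program. All 4 libraries share this genetic background, while the labels name neither the Cre driver of the reporter nor the age and sex of the animals. After enrichment of CD4+ T cells by negative selection, both sorts were gated as CD4+, TCRβ+, CD25−, CXCR5+ and PD-1+. The gates of the sorts thus differ by ZsGreen only. The stated aim was a gene signature of Tfh cells that derive from Th17 cells. Nothing in the labels says that the libraries of one sort come from separate animals, and pooling is not mentioned. A p-value therefore reflects only scatter among libraries, part of which may be technical. That scatter was estimated from all 8 libraries of the series, with information shared across genes. RNA was pooled from many cells in each library. Fewer cells that express a gene and less RNA of it per cell therefore cannot be told apart.

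Tfh cells are the CD4+ T cells that enter B cell follicles, guided by the chemokine receptor CXCR5, and help B cells to mature in germinal centres. Their identity depends on the transcriptional repressor Bcl6. Th17 cells are a separate CD4+ lineage that responds to IL-23 and IL-1 and secretes IL-17 and IL-22. Peyer's patches are lymphoid follicles in the wall of the small intestine. They hold germinal centres at all times because gut bacteria stimulate them, and Th17 cells are abundant in the surrounding mucosa.

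The 4 libraries held 10843208 to 14965393 estimated counts each, and 14418 genes were tested. The main axis of difference among them was the experiment and not the sort. In a principal component analysis of their log2 CPM values (CPM is a gene's share of its library's counts, scaled by TMM), the first component held 84.7% of the variance and separated the experiments. The second component held 9.23% and separated the sorts. Y-linked genes had 179 counts in the ZsGreen− and 1010 in the ZsGreen+ library of experiment 1, against 1065 and 1482 in experiment 2. Xist had 20046 and 24703 counts in experiment 1 and 1252 and 1948 in experiment 2, in the same order. Each of these libraries thus held both Y-linked and Xist counts. Whether animals of both sexes were pooled was not tested. The sorts of experiment 1 differed in Y-linked counts, and the part of this in the results below was not tested. Trbv19, the segment of the transgenic receptor chain, was first among 22 Trbv segments in every library. Its share of the Trbv counts was 57.8% (ZsGreen−) and 70.7% (ZsGreen+) in experiment 1 and 81.2% and 80.8% in experiment 2.

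Both sorts carried the transcripts that define Tfh cells. Levels of each gene are given in TMM-scaled CPM, first for the ZsGreen− sort and then for the ZsGreen+ sort, each with experiment 1 before experiment 2. Pdcd1, encoding PD-1, was at 599.0 and 1231 CPM against 652 and 1292 CPM. Bcl6 was at 204 and 52.4 CPM against 244 and 44.2 CPM. Both genes overlapped between the sorts, and both varied more between experiments than between sorts. Cxcr5 was at 767 and 802 CPM in ZsGreen− cells and at 636 and 633 CPM in ZsGreen+ cells. Both ZsGreen+ libraries were below both ZsGreen− libraries for Cxcr5, but the difference did not pass the test (log2 fold change −0.31 ± 0.16, SE, adjusted p = 0.687). Il21, the main helper cytokine of Tfh cells, was at 134 and 251 CPM against 249.1 and 310 CPM, with groups that overlapped (log2 fold change 0.59 ± 0.33, adjusted p = 0.747). By edgeR, 0 of 17 Tfh surface receptors and costimulators and 0 of 16 Tfh transcription factors passed the test. DESeq2 also called 0 of the 17 and 0 of the 16. At an unadjusted p under 0.05 there were 0 of the 17 surface genes and 3 of the 16 factors, with Maf and Prdm1 higher and Id3 lower. The median log2 fold change was −0.07 for the surface list and 0.06 for the factor list, beside 0.0016 over all genes tested.

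At an adjusted p of 0.05, 41 genes rose and 22 fell in ZsGreen+ cells, which is 0.284% and 0.153% of the genes tested and 0.437% together. All adjusted p-values here are from edgeR's quasi-likelihood test over the 8 libraries of the series with a term for the experiment. Fold changes come from 2 libraries a sort, with standard errors (SE) from the fit. The 41 genes that rose had a median log2 fold change of 2.13, and 21 of them rose at least 4-fold. The 22 that fell had a median size of 1.26, with 7 at least 4-fold lower. All 63 moved the same way in both experiments, as did 7727 of the 14418 genes tested. The calls come from these same libraries, so this agreement and the overlap counts that follow are partly fixed by the selection. For 35 of the 41 both ZsGreen+ libraries were above both ZsGreen− libraries, and for 17 of the 22 both were below, where 5.59% and 5.22% of all genes show these patterns. The criterion of the study itself, a fold of at least 1.5 at p under 0.05, here unadjusted, took 380 genes up (2.64%) and 281 down (1.95%). With no limit on the fold, an unadjusted p under 0.05 took 621 genes higher (4.31%) and 551 lower (3.82%), 1172 in all, where 721 are expected if no gene differs.

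**Figure D1:**
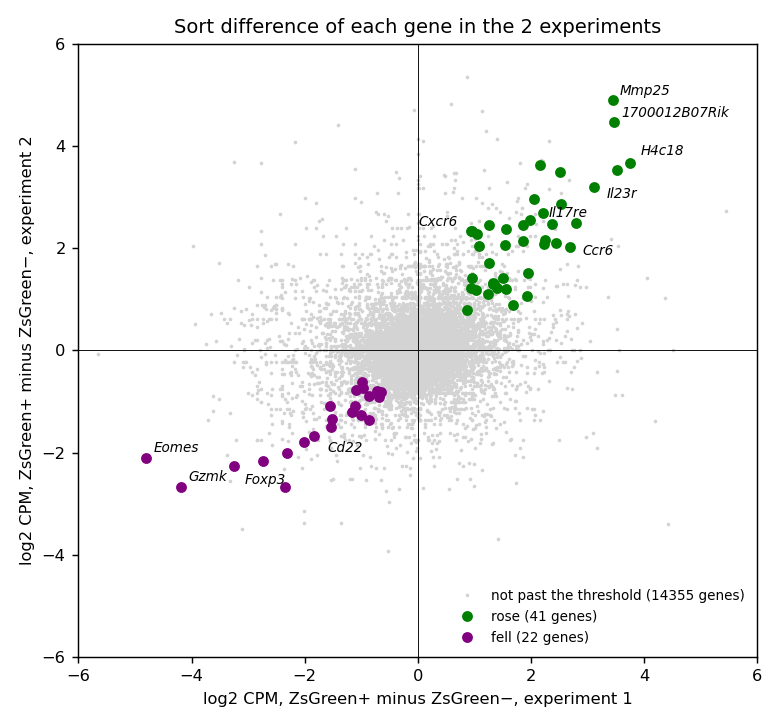
Each point is 1 of 14418 genes, placed by its log2 CPM difference between ZsGreen+ and ZsGreen− cells in experiment 1 (horizontal) and in experiment 2 (vertical), with 2 genes outside the axes. The 41 genes that rose (green) lie in the upper right and the 22 that fell (purple) in the lower left, while most genes (grey) lie near 0 in both.

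Single libraries carried much of these counts. Without the ZsGreen− library of experiment 1 there were 7 genes up and 0 down (342 lower at an unadjusted p under 0.05), and without that of experiment 2 there were 11 up and 7 down. Without the ZsGreen+ library of experiment 1 there were 46 up and 7 down, and without that of experiment 2 there were 31 up and 20 down. Only Ccr6, Il23r, Il17re and 1700012B07Rik passed the test with each of the 8 libraries left out in turn. Their highest adjusted p among these fits was 0.00764 for Ccr6, 0.0334 for Il23r, 0.0387 for Il17re and 0.0224 for 1700012B07Rik. The fit without the experiment term called 0 genes, with 72 higher and 39 lower at an unadjusted p under 0.05.

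Receptor genes known from Th17 cells, Il23r, Il17re and Ccr6, rose. Il23r encodes the specific chain of the IL-23 receptor, which sustains Th17 cells, and lies at chr6:67399916-67468839 (mm39). It was at 0.708 and 2.44 CPM against 7.20 and 23.5 CPM. Every ZsGreen+ library was above every ZsGreen− library (log2 fold change 3.29 ± 0.28, adjusted p = 0.000526). Il17re, the receptor chain for the epithelial cytokine IL-17C, lies at chr6:113435445-113447719. It was at 2.61 and 2.66 CPM against 11.4 and 21.6 CPM, again without overlap (log2 fold change 2.54 ± 0.24, adjusted p = 0.000938).

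Ccr6, the receptor for the gut chemokine CCL20 that marks Th17 cells, lies at chr17:8454875-8475973. It was at 9.96 and 72.3 CPM in ZsGreen− cells and at 65.0 and 293 CPM in ZsGreen+ cells. The groups overlapped because experiment 2 was higher in both sorts, while the difference within each experiment was alike, at 2.69 and 2.02 on the log2 scale (fitted 2.31 ± 0.20, adjusted p = 0.000613). Tmem176a encodes a membrane channel protein that is abundant in Th17 cells. It was at 4.30 and 5.10 CPM against 19.7 and 64.7 CPM, without overlap (log2 fold change 2.94 ± 0.34, adjusted p = 0.0203). Its neighbour Tmem176b was at 7.46 and 7.31 CPM against 26.5 and 94.2 CPM and did not pass the test (2.71 ± 0.43, adjusted p = 0.166). The models of these neighbours overlap on opposite strands, and the library notes name a non-directional preparation, so reads from the shared stretch cannot be assigned to one of them. Without either ZsGreen− library of Peyer's patch, or either of spleen, Tmem176a was not called, with an adjusted p of up to 0.166.

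The Th17 effector cytokines had higher values in ZsGreen+ cells of both experiments, with Il17a at low levels, and edgeR called 0 of them, while DESeq2 called Il17f and Il22. Il17f was at 0.762 and 7.75 CPM in ZsGreen− cells and at 5.06 and 66.8 CPM in ZsGreen+ cells (log2 fold change 2.98 ± 0.41, adjusted p = 0.0650). Il17a was at 0 and 0.554 CPM against 0.562 and 11.7 CPM (adjusted p = 0.546). Il22 was at 1.20 and 27.0 CPM against 15.35 and 111 CPM (2.72 ± 0.78, adjusted p = 0.536). For all 3 cytokines the ZsGreen+ library of experiment 2 was the highest of the 4, and for Il17f and Il22 the ZsGreen− library of experiment 2 stood above the ZsGreen+ library of experiment 1. The chemokine genes Ccl20 and Cxcl3 had 25 and 17 counts, all in the ZsGreen+ library of experiment 2. Ltb4r1, a leukotriene B4 receptor, was at 0.272 and 0.111 CPM against 2.31 and 17.3 CPM (4.94 ± 0.90, adjusted p = 0.191). Rora, which encodes RORα, a nuclear receptor expressed in Th17 cells, was at 33.3 and 43.8 CPM against 60.7 and 69.8 CPM without overlap (0.78 ± 0.27, adjusted p = 0.486).

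Over the list of 17 Th17 genes, 5 rose and 0 fell, with Il23r, Il17re, Ccr6 and Tmem176a among those that rose. At an unadjusted p under 0.05, 16 of the 17 were higher, all but Csf2, beside 4.31% of the genes tested. Of these, Ccl20 and Cxcl3 had counts in the ZsGreen+ library of experiment 2 alone among the Peyer's patch libraries. In both experiments 14 of the 17 were higher, beside 3947 of the 14418 genes tested. DESeq2 called 9 higher, the same 5 with Il17f, Il22, Tmem176b and Ltb4r1. By the study's criterion 15 were higher, beside 2.64% of the genes tested. The median log2 fold change of the list was 2.71, or 2.54 with Ccl20 and Cxcl3, which are at 0 in ZsGreen− cells, set to the bound that a floor of 3 counts gives, beside 0.0016 over all genes. The summed level of the list was 250 and 292 CPM in ZsGreen− cells and 607 and 960 CPM in ZsGreen+ cells. Much of that sum came from Ccr6 and from Il1r1, which was at 172 and 106 CPM against 346 and 130 CPM. Il1r1 did not pass the test (adjusted p = 0.232).

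**Figure D2:**
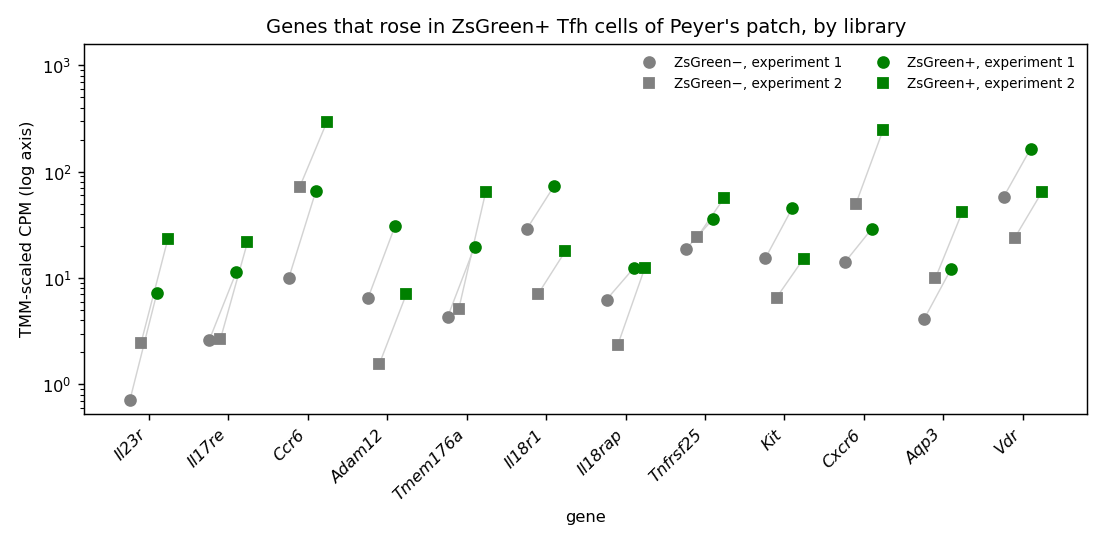
TMM-scaled CPM (log axis) of 12 genes that rose, in each of the 4 Peyer's patch libraries, with ZsGreen− in grey, ZsGreen+ in green, circles for experiment 1, squares for experiment 2 and a line joining the sorts of 1 experiment. Every line climbs, and for Ccr6, Il18r1, Kit and Cxcr6 the experiments are so far apart that the sorts overlap.

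RORα and related nuclear receptors bind DNA at a core hexamer, AGGTCA. Promoter windows were searched for it on both strands (TGACCT on the other) in the 250 bases before each start of the RefSeq annotation (GRCm38.p6), which had entries for 36 of the 41 genes that rose and 17 of the 22 that fell. The windows of Il23r and Ccr6 are shown because both genes kept their call with any library left out and their windows hold the hexamer and no annotated exon. That of Il21r is shown as the window of a gene that fell, which also holds the hexamer and no annotated exon. Capitals mark the hexamer on either strand, and each window is written 5′ to 3′ along the strand of its gene and ends at the base before the start: Il23r is on the minus strand (chr6:67491856-67492105), Ccr6 on the plus strand (chr17:8235793-8236042, the first of 2 starts) and Il21r on the plus strand (chr7:125603179-125603428).
Il23r: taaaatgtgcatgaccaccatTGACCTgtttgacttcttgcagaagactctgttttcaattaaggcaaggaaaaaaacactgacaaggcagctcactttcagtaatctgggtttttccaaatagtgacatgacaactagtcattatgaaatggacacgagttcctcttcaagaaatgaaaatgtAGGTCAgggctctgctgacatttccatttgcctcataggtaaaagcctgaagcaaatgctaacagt
Ccr6: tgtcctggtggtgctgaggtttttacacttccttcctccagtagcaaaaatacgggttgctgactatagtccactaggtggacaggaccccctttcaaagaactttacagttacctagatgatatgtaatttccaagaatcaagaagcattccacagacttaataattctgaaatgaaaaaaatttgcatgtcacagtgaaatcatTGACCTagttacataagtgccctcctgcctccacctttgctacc
Il21r: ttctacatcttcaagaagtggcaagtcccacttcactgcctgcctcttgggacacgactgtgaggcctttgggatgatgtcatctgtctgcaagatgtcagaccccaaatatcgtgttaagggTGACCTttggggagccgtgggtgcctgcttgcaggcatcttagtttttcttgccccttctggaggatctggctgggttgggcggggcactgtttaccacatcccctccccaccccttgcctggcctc

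The hexamer was in the windows of 7 of the 36 genes that rose (Ccr6, Crmp1, Dkkl1, Fbxo27, Il23r, Nebl and Tnfrsf25) and of 4 of the 17 that fell (Chn2, Foxp3, Il21r and Sox4). It was in those of 15.8% of all 27025 genes of the annotation and of 13.0% of the 9790 genes tested that had a window. A match is only a match of letters. The motif TGANTCA, bound by AP-1 and BATF-containing dimers, was in the windows of 2 of the 36 genes that rose (Emp1 and Xkrx) and 0 of the 17 that fell, beside 7.82% of all genes and 5.09% of the genes tested that had a window.

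Both chains of the IL-18 receptor and the TNF family receptor Tnfrsf25 rose. Il18r1 and Il18rap encode the chains of the IL-18 receptor and are neighbours on chromosome 1. Il18r1 was at 29.1 and 7.09 CPM against 73.1 and 17.8 CPM. Experiment 1 was the higher in both sorts, so the groups overlapped, and the difference was 1.33 ± 0.14 on the log2 scale (adjusted p = 0.00155). Il18rap was at 6.26 and 2.33 CPM against 12.3 and 12.3 CPM without overlap (1.54 ± 0.27, adjusted p = 0.0433). Tnfrsf25, or death receptor 3, which binds the cytokine TL1A, was at 18.7 and 24.04 CPM against 35.8 and 56.6 CPM, also without overlap (1.08 ± 0.15, adjusted p = 0.00864). Of 8 IL-1 family receptor genes 2 rose and 0 fell, with a median log2 fold change of 0.54, or 0.35 with Il1rl1 at its bound. Il1r1, the signalling receptor for IL-1, was at 172 and 106 CPM against 346 and 130 CPM and did not pass (0.66 ± 0.18, adjusted p = 0.232). Of 18 TNF superfamily genes Tnfrsf25 alone rose and 0 fell. Without the ZsGreen− library of experiment 1, the adjusted p of Il18r1 was 0.0998. Tnfrsf25 lost its call without either ZsGreen− library (up to 0.131) and Il18rap without 5 of the 8 libraries (up to 0.227).

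Among receptors of the common gamma chain, IL-6, IL-10 and IL-12 families Il21r and Il10ra fell. Il21r, the receptor through which Tfh cells respond to their own IL-21, was at 166 and 241 CPM in ZsGreen− cells and at 103 and 128 CPM in ZsGreen+ cells. Both ZsGreen+ libraries lay below both ZsGreen− libraries (log2 fold change −0.80 ± 0.13, adjusted p = 0.0223). Il10ra, the ligand-binding chain of the IL-10 receptor, was at 24.4 and 8.97 CPM against 8.38 and 3.08 CPM (−1.55 ± 0.25, adjusted p = 0.0214). Of the 17 genes of this list 2 fell and 0 rose, with a median of −0.25 on the log2 scale. Il12rb2 and Il4ra were lower as well at an unadjusted p under 0.05, and DESeq2 called Il12rb2. Il12rb2 was at 6.15 and 9.97 CPM against 1.63 and 3.83 CPM (−1.60 ± 0.40, adjusted p = 0.177). Of its exon length, 40.0% is shared with Serbp1 on the other strand, where their reads cannot be told apart. The mean count over the 4 Peyer's patch libraries was 71 for Il12rb2 and 7471 for Serbp1. Leaving out any of the 4 Peyer's patch libraries took Il21r over the threshold (adjusted p up to 0.197), and any but the ZsGreen+ library of experiment 2 took Il10ra over it (up to 0.290).

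Among homing receptors Cxcr6 rose. This receptor for CXCL16 marks T cells that settle in mucosa. It was at 14.0 and 49.96 CPM in ZsGreen− cells and at 29.0 and 245 CPM in ZsGreen+ cells, where the ZsGreen− library of experiment 2 stood above the ZsGreen+ library of experiment 1 (1.70 ± 0.27, adjusted p = 0.0482). Of 21 homing and residence genes it was the only one past the threshold, the list's median was 0.11, and the call held in 1 of 8 fits that left a library out (adjusted p up to 0.205). Ccr9, the small-intestinal homing receptor, was at 4.08 and 7.42 CPM against 4.33 and 23.8 CPM (adjusted p = 0.550). Ccr8 and Gpr15 were also higher at an unadjusted p under 0.05. Gpr15 had 4 and 5 counts against 14 and 20. It shares 12.5% of its exon length with Cpox on the other strand, where their reads cannot be told apart.

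Genes of exit and recirculation had mostly lower values in ZsGreen+ cells. Of the 12 genes of this list 1 fell and 0 rose, with a median of −0.40 on the log2 scale. Unadjusted p-values under 0.05 took 7 of the 12 lower and 0 higher, beside 3.82% lower and 4.31% higher over all genes tested. DESeq2 called 4 lower, among them Ccr7, Klf2 and Gpr18. Ccr7, the receptor that guides cells to the T cell zone, was at 22.9 and 43.9 CPM against 11.3 and 17.0 CPM (−1.18 ± 0.25, adjusted p = 0.148). Klf2, the transcription factor that drives the exit receptor gene S1pr1, was at 56.9 and 72.0 CPM against 26.1 and 52.8 CPM (−0.80 ± 0.19, adjusted p = 0.150). For Ccr7 and Klf2 no ZsGreen+ library reached a ZsGreen− library.

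Of the genes of naive and memory state, Sox4 and Actn1 fell. Sox4, a transcription factor of early and naive T cells, was at 10.1 and 8.53 CPM against 1.91 and 2.03 CPM (−2.24 ± 0.30, adjusted p = 0.00821), with a wide gap between the sorts. Actn1, encoding an actin crosslinker found in naive T cells, was at 180.5 and 23.3 CPM against 98.8 and 8.93 CPM, with overlap because the experiments differed by more than the sorts (−1.08 ± 0.15, adjusted p = 0.0118). Of 18 genes of this list these 2 fell and 0 rose, with a median of −0.14. S100a4, a calcium-binding protein of effector memory cells, was at 7.13 and 4.10 CPM against 17.99 and 30.7 CPM (1.96 ± 0.33, adjusted p = 0.0863), and DESeq2 called it higher. S100a6, Lgals1 and Ahnak were likewise higher at an unadjusted p under 0.05, while Lef1, Nsg2 and Igfbp4 were lower. Of the exon length of Sox4, 54.6% is shared with Gm26735 on the other strand, where their reads cannot be told apart. The call of Sox4 was lost without 3 of the 4 Peyer's patch libraries (up to 0.166) and that of Actn1 without either ZsGreen− library (up to 0.157).

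The largest falls among the 22 genes were those of Eomes, Gzmk and Foxp3, genes of cytotoxic and regulatory T cells, all at low levels. Eomes, a T-box transcription factor of cytotoxic and memory cells, was at 8.49 and 1.11 CPM in ZsGreen− cells and at 0.169 and 0.150 CPM in ZsGreen+ cells (−4.80 ± 0.58, adjusted p = 0.00397). The size of this fall rests on experiment 1, where the log2 CPM difference was −4.80, against −2.10 in experiment 2. Gzmk, encoding granzyme K, had 44 and 24 counts in the ZsGreen− libraries and 0 and 4 in the ZsGreen+ libraries (−4.31 ± 0.68, adjusted p = 0.0203). The chemokine gene Ccl5 was at 5.17 and 2.44 CPM against 1.18 and 0.600 CPM (−2.08 ± 0.38, adjusted p = 0.0433). None of these 3 genes overlapped between the sorts. Of 17 cytotoxic and Th1 genes these 3 fell and 0 rose, with a median of −1.13. That median is the fitted value of Klrg1, at 0.163 and 0.111 CPM against 0 and 0.150 CPM. The medians of the log2 CPM differences were −0.829 in experiment 1 and −0.384 in experiment 2. The list's summed level was 203 and 272 CPM against 169 and 313 CPM, lower in experiment 1 and higher in experiment 2. Prf1, Ccl4 and Tbx21 were lower at an unadjusted p under 0.05, and Tbx21, the master factor of Th1 cells, was at 9.04 and 9.53 CPM against 1.80 and 6.83 CPM (adjusted p = 0.410). Gzmb, encoding granzyme B, was at 0.163 and 2.33 CPM against 0.506 and 14.1 CPM (adjusted p = 0.615). Eomes and Gzmk lost their calls without either library of experiment 1 (adjusted p up to 0.255 and 0.245), and Ccl5 without any of the 4 Peyer's patch libraries (up to 0.724).

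Foxp3, the master factor of regulatory T cells, had 91 and 21 counts in the ZsGreen− libraries and 7 and 5 in the ZsGreen+ libraries, which is 4.95 and 2.33 CPM against 0.394 and 0.375 CPM. The sorts did not overlap (−3.25 ± 0.47, adjusted p = 0.0118), and the call was lost without 3 of the 4 Peyer's patch libraries (up to 0.242). The gate removed CD25+ cells from both sorts, and Il2ra, which encodes CD25, was at 3.16 and 2.55 CPM against 2.31 and 4.80 CPM (0.30 ± 0.42, adjusted p = 0.915). Gpr83, a receptor enriched in regulatory T cells, was at 31.5 and 37.998 CPM against 13.9 and 16.3 CPM (−1.20 ± 0.20, adjusted p = 0.0214). Its neighbour on chromosome 9, Izumo1r, encodes folate receptor 4, a protein of regulatory and Tfh cells, and was at 559.8 and 939 CPM against 262 and 545 CPM (−0.94 ± 0.17, adjusted p = 0.0433). Neither Gpr83 nor Izumo1r overlapped between the sorts, and both lost their calls without any of the 4 Peyer's patch libraries (up to 0.230 and 0.490). These 3 fell among 13 regulatory genes, 0 rose, and the list's median was −0.01. The summed level of the list was 1320.0 and 1900.0 CPM in ZsGreen− cells and 1370.0 and 1480.0 CPM in ZsGreen+ cells. Foxp3 shares 18.6% of its exon length with Flicr and 12.9% with Ccdc22, where its reads cannot be told from theirs.

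**Figure D3:**
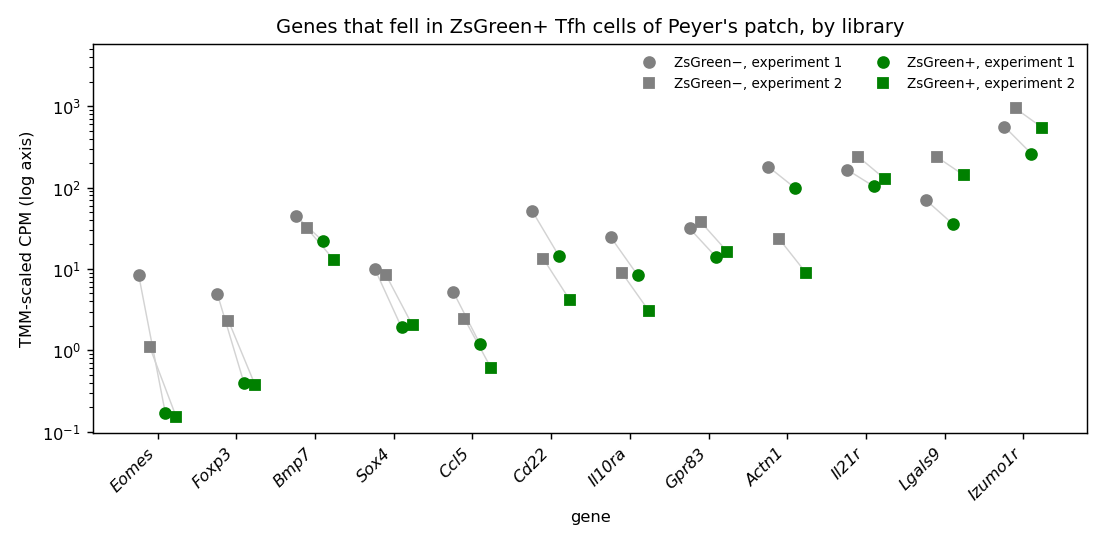
TMM-scaled CPM (log axis) of 12 genes that fell, in each of the 4 Peyer's patch libraries, with ZsGreen− in grey, ZsGreen+ in green, circles for experiment 1, squares for experiment 2 and a line joining the sorts of 1 experiment. Every line descends, by far the steepest for Eomes in experiment 1, and Eomes, Foxp3 and Ccl5 lie at or below about 10 CPM throughout, as in the values given for each.

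Cd22 and Bmp7 fell as well. Cd22, an inhibitory lectin best known from B cells, was at 51.6 and 13.4 CPM in ZsGreen− cells and at 14.4 and 4.13 CPM in ZsGreen+ cells (−1.77 ± 0.25, adjusted p = 0.0118). It was the only one of 13 inhibitory receptor genes past the threshold, and the list's median was 0.0070. Of 14 B cell genes 0 passed by edgeR, by DESeq2 or at an unadjusted p under 0.05, and their summed level was 571 and 739 CPM against 504 and 639 CPM. Without the ZsGreen− library of experiment 1, the adjusted p of Cd22 was 0.435. Among 16 genes of the TGF-beta family Bmp7, a secreted bone morphogenetic protein, fell from 44.6 and 31.5 CPM to 22.0 and 13.0 CPM (−1.14 ± 0.18, adjusted p = 0.0189). Tgfb3 was at 21.3 and 18.3 CPM against 12.7 and 9.98 CPM (−0.80 ± 0.18, adjusted p = 0.123), which DESeq2 called lower. Both TGF-beta family genes were lower in each ZsGreen+ library than in each ZsGreen− library, and Bmp7 was not called without any of the 4 Peyer's patch libraries (up to 0.179).

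Transporters split. Aqp3, a channel for water and glycerol, was at 4.14 and 9.97 CPM in ZsGreen− cells and at 12.3 and 41.9 CPM in ZsGreen+ cells (1.83 ± 0.19, adjusted p = 0.00155). Abcb9, a peptide transporter of the lysosome, was at 73.2 and 86.0 CPM against 24.8 and 40.1 CPM (−1.32 ± 0.16, adjusted p = 0.00502). Neither overlapped between the sorts. Abcb1a, the drug efflux pump P-glycoprotein, was at 74.0 and 18.8 CPM against 34.3 and 8.78 CPM (−1.11 ± 0.21, adjusted p = 0.0482). Of the 15 transporter and channel genes 2 rose (Aqp3 and Xkrx), 2 fell (Abcb9 and Abcb1a), and the median was −0.18. Without the ZsGreen− library of experiment 2, the adjusted p of Aqp3 was 0.0657, and without either ZsGreen− library Abcb9 was not called (up to 0.160). Abcb1a, whose sorts overlapped, was not called without any one of the 4 Peyer's patch libraries (up to 0.503).

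Other genes that rose code for proteases, a histone, cytoskeletal proteins and receptors. The little-studied gene 1700012B07Rik, at chr11:109678477-109718872, was at 0.762 and 0.554 CPM in ZsGreen− cells and at 9.84 and 15.2 CPM in ZsGreen+ cells (4.10 ± 0.34, adjusted p = 0.000526). Both ZsGreen+ libraries stood far above both ZsGreen− libraries. Crmp1, known as a cytoskeletal regulator of neurons, was at 27.0 and 27.1 CPM against 68.0 and 68.3 CPM, with nearly equal values in the experiments (1.34 ± 0.14, adjusted p = 0.00155). Adam12, a membrane metalloprotease, was at 6.53 and 1.55 CPM against 31.0 and 7.05 CPM (2.20 ± 0.25, adjusted p = 0.00298). Adam12 and Crmp1 did not overlap between the sorts, and each lost its call only without the ZsGreen− library of experiment 1 (adjusted p of 0.178 and 0.0749). Mmp25, a matrix metalloprotease anchored to the membrane, was at 0.327 and 0 CPM against 4.95 and 4.05 CPM (4.59 ± 0.56, adjusted p = 0.00600). Adam8, another metalloprotease, was at 0.653 and 0.665 CPM against 4.39 and 8.93 CPM (3.27 ± 0.50, adjusted p = 0.0482). Mmp25 and Adam8 were not called without either ZsGreen− library of Peyer's patch, and Adam8 without either ZsGreen+ library of spleen (up to 0.196 and 0.708).

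Vdr, the vitamin D receptor, was at 58.0 and 23.9 CPM in ZsGreen− cells and at 165 and 64.1 CPM in ZsGreen+ cells (1.46 ± 0.22, adjusted p = 0.0296). Kit, the receptor for stem cell factor, was at 15.35 and 6.54 CPM against 45.6 and 15.2 CPM, with overlap between the sorts (1.41 ± 0.23, adjusted p = 0.0203). Vdr did not overlap, and both lost their calls without 3 of the 4 Peyer's patch libraries (up to 0.433 and 0.484). Pde5a, a phosphodiesterase that degrades cyclic GMP, was at 0.435 and 0.554 CPM against 3.20 and 4.95 CPM (3.09 ± 0.49, adjusted p = 0.0203). Igfbp7, a secreted binding protein, had 3 counts in the ZsGreen− libraries together and 97 in the ZsGreen+ libraries, a ratio of 28.5 with a 95% exact counting interval of 9.46 to 140.0. H4c18, a histone H4 gene, had 0 counts in ZsGreen− cells and 31 and 22 in ZsGreen+ cells, at least 15.6-fold higher with a floor of 3 counts over the group (adjusted p = 0.0189). Histone H4 genes are near-identical copies, so how the authors' counting divided their reads bears on this value. Interval and floor cover counting error only. Without either ZsGreen− library Pde5a, Igfbp7 and H4c18 were not called (up to 0.543, 0.327 and 0.357).

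Further genes that rose were, from the largest log2 fold change to the smallest, Cpe (2.96), Card10 (2.71), Plekhf1 (2.56), Tspan2 (2.45), Fbxo27 (2.34), the processed pseudogene Gm8818 (2.27), Dkkl1 (2.17), Itgb3 (2.14), Xkrx (2.13), Nrgn (1.86), Tdrkh (1.77), Tube1 (1.55), Gna15 (1.51), Itpripl2 (1.34), Epdr1 (1.32), Plcb4 (1.32), Gcnt1 (1.30), Nebl (1.18), Acsbg1 (1.15), Emp1 (1.15) and Slc25a24 (0.84). Itgb3 encodes the beta3 integrin, and its level was 2.07 and 0.775 CPM against 7.87 and 3.90 CPM. Gcnt1, an enzyme that makes the branched sugars bound by selectins, was at 12.9 and 14.0 CPM against 41.8 and 25.9 CPM. Of the exon length of Tdrkh, 36.7% is shared with Oaz3 on the other strand, where their reads cannot be told apart.

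Further genes that fell were Actg2 (−2.62), Osbpl6 (−1.46), Chn2 (−0.89), Lgals9 (−0.85), Gimap7 (−0.80), Rflnb (−0.77) and Agfg1 (−0.73). Actg2, a smooth muscle actin, was at 7.95 and 14.6 CPM in ZsGreen− cells and at 1.07 and 3.15 CPM in ZsGreen+ cells. Lgals9 encodes galectin-9, a ligand of the receptor TIM-3, and was at 70.6 and 238 CPM against 36.0 and 143 CPM. Gimap7, a GTPase of lymphocytes, was at 41.5 and 127 CPM against 20.8 and 82.3 CPM. For Lgals9 and Gimap7 the groups overlapped, with experiment 2 the higher in both sorts. The rest of these genes did not overlap. All 28 genes of both groups just listed lost their call without the ZsGreen− library of experiment 1, and all but Actg2 and Gcnt1 without that of experiment 2, with highest adjusted p-values of 0.114 to 0.703.

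Cell cycle genes had mostly higher values in ZsGreen+ cells, though edgeR called 0 of them. Of 20 genes of DNA replication and S phase 0 passed (1, Prim1, by DESeq2), 12 were higher and 0 lower at an unadjusted p under 0.05, and 18 were higher in both experiments. Their median log2 fold change was 0.47, with a range of 0.12 to 0.83. Of 21 mitotic genes 0 passed by edgeR or DESeq2, 9 were higher and 0 lower at an unadjusted p under 0.05, 18 were higher in both experiments, and the median was 0.49. Over all 14418 genes tested, 4.31% were higher at an unadjusted p under 0.05, and 3947 were higher in both experiments. Prim1, a subunit of DNA primase, was at 12.4 and 36.1 CPM against 21.1 and 57.2 CPM (0.72 ± 0.15, adjusted p = 0.0956). Mki67, the usual marker of dividing cells, was at 114 and 28.9 CPM against 169.95 and 54.8 CPM (0.77 ± 0.21, adjusted p = 0.293). Both genes were higher in ZsGreen+ cells of each experiment but overlapped between the sorts. The difference was larger in experiment 2 for 18 of the 20 replication genes and for all 21 mitotic genes, beside 6328 of all 14418 genes.

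Interferon-stimulated genes had mostly lower values. Of 18 genes 0 passed the test (1, Irf7, by DESeq2), 7 were lower and 0 higher at an unadjusted p under 0.05, 13 were lower in both experiments, and the median was −0.47. Irf7, the factor that amplifies the interferon response, was at 59.7 and 97.7 CPM against 37.3 and 70.1 CPM (−0.58 ± 0.14, adjusted p = 0.155). Components of T cell receptor signalling were lower in both experiments for 13 of 17 genes, but 0 of them passed by edgeR or DESeq2 or had an unadjusted p under 0.05, and the median was −0.23. Over all 14418 genes tested, 3.82% were lower at an unadjusted p under 0.05, and 3780 were lower in both experiments. The lists for immediate early genes (22 genes), survival and death (14), glycolysis (18), cholesterol synthesis (18), oxidative phosphorylation (19), heat shock (9), helper cytokines (9), leukotriene and prostaglandin genes (7) and Th2 (4) held 0 genes past the threshold. At an unadjusted p under 0.05 they held 1, 1, 4, 1, 0, 0, 2, 2 and 2 genes. DESeq2 called Tpi1 of the glycolysis list and Ltb4r1 of the leukotriene list higher and 0 in the other lists named. In the 11-gene Notch list Adam12 rose, and Dtx1 was at 702 and 294 CPM against 430.2 and 178 CPM (−0.72 ± 0.16, adjusted p = 0.123), which DESeq2 called lower.

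**Figure D4:**
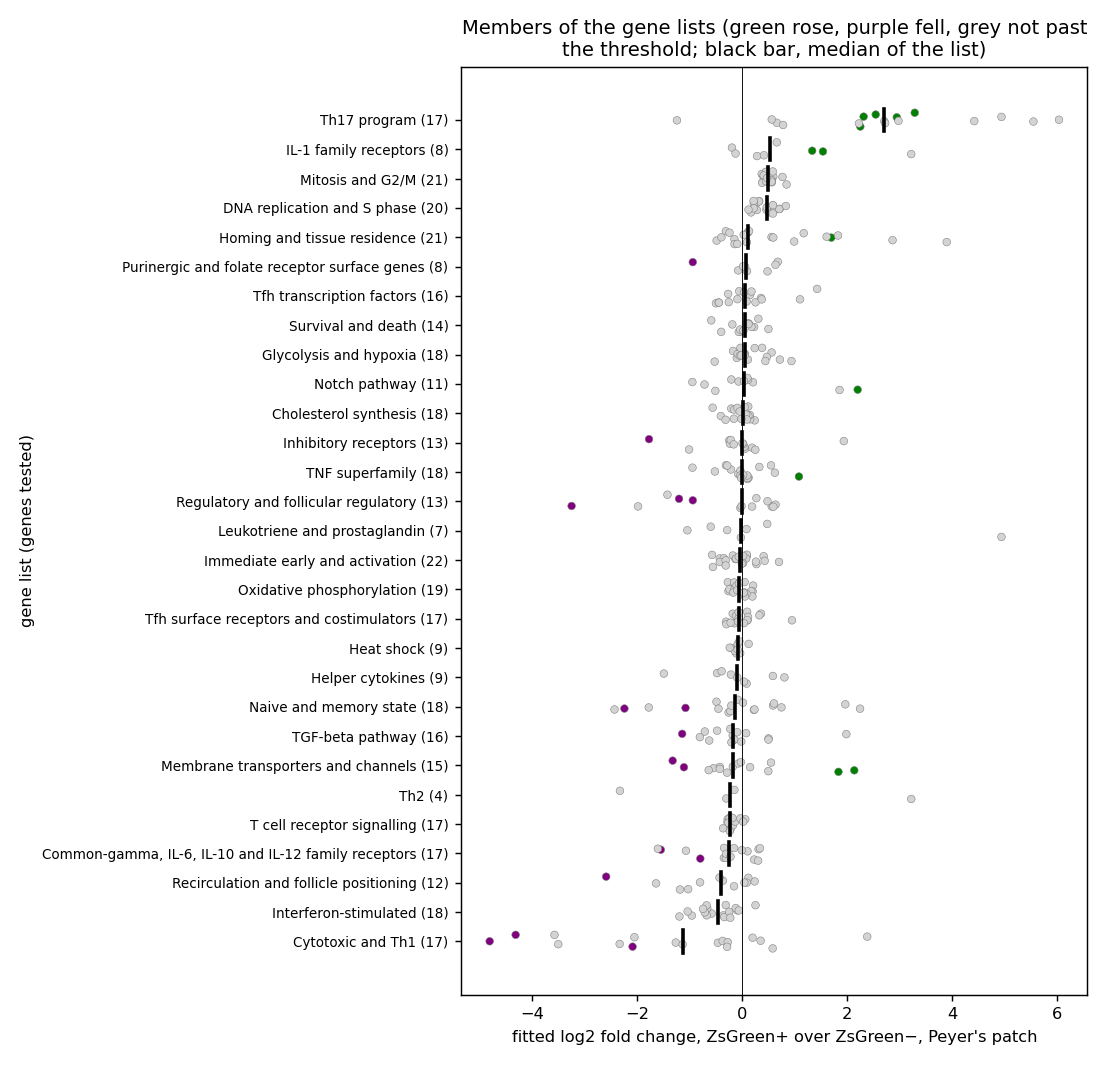
Fitted log2 fold change between ZsGreen+ and ZsGreen− cells (horizontal) of each member of 29 gene lists (rows, with the number of genes tested), coloured green where the gene rose, purple where it fell and grey where it did not pass, with a black bar at the median of each list. Among the lists shown, the Th17 list stands far to the right with a median of 2.71, and the next medians are 0.54 or less. The cytotoxic and Th1 list lies lowest at −1.13, which is the value of Klrg1, a gene at 0.163 CPM or less in each library. Lists of sex-linked genes (median 1.03) and of markers of other cells are not shown. Among the latter, the list of gamma-delta T cells, innate-like T cells and innate lymphoid cells had a median of 1.48.

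Markers of other cells were also followed, because a sorted population can hold them. Besides the B cell list, 0 of 8 plasma cell, 0 of 9 myeloid, 0 of 4 CD8 T and NK and 0 of 8 epithelial genes passed by edgeR or DESeq2, and at an unadjusted p under 0.05 these lists held 1, 1, 0 and 2 genes. The summed level of the myeloid list was 35.8 and 34.2 CPM in ZsGreen− cells and 41.4 and 34.1 CPM in ZsGreen+ cells, and that of the plasma cell list 368 and 198 CPM against 227 and 274 CPM. In the list of 8 genes of gamma-delta T cells, innate-like T cells and innate lymphoid cells (ILC), Kit rose and the summed level was 35.2 and 39.3 CPM against 57.2 and 74.4 CPM. The median log2 fold change of the list was 1.48, 6 of the 8 values were positive, and at an unadjusted p under 0.05 Kit, Blk, Zbtb16 and Trgc1 were higher and Sox13 and Trdc lower. The higher sum in the ZsGreen+ sort rests on Kit, at 15.35 and 6.54 CPM against 45.6 and 15.2 CPM, and in experiment 2 also on Trgc1. Trdc, the constant gene of the delta chain, was at 14.5 and 24.4 CPM against 2.70 and 5.78 CPM (−2.32 ± 0.50, adjusted p = 0.249, called lower by DESeq2). Sox13, a factor of gamma-delta T cells, was at 0.708 and 0.554 CPM against 0 and 0.150 CPM. Trgc1, a gamma chain constant gene, was at 0.381 and 1.99 CPM against 1.24 and 37.5 CPM, high in the ZsGreen+ library of experiment 2 alone (adjusted p = 0.609). Zbtb16, which encodes the innate-like factor PLZF, was at 0.653 and 0.332 CPM against 2.92 and 0.975 CPM (adjusted p = 0.449). The part of such cells in the rise of the Th17 genes was not tested. In the stromal and erythroid list of 7 genes Actg2 fell. Acta2, the other smooth muscle actin, was at 0.980 and 14.2 CPM against 0.675 and 3.38 CPM (adjusted p = 0.415), and the part of muscle cells in the fall of Actg2 was not tested.

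The same sort contrast in spleen called 653 genes up (4.53%) and 590 down (4.09%). In spleen, 37 of the 41 risers of Peyer's patch passed in the same direction, which is 37 of the 653, and 31 of the 41 had the larger fold change there, as did 9188 of all 14418 genes. Of the 22 that fell, 21 passed in the same direction, which is 21 of the 590, and 18 had the larger fold there. Both contrasts come from 1 fit with a common experiment term. In spleen, Y-linked genes had 0 counts in the ZsGreen− and 1094 in the ZsGreen+ library of experiment 1, against 397 and 1227 in experiment 2. The part of this in the spleen contrast and in the tissue difference was not tested. Vdr, Gcnt1, Epdr1 and H4c18 rose in Peyer's patch and Gimap7 fell there without passing in spleen, but the difference between tissues did not pass for any of them (adjusted p of 0.653, 0.472, 0.670, 0.102 and 0.357). A test of the difference between the contrasts called 4 genes higher in Peyer's patch (0.0277%) and 10 lower (0.0694%). Il17re and Acsbg1 were the only genes called in both this test and the Peyer's patch contrast. The log2 fold change of Il17re was 2.54 in Peyer's patch and 5.36 in spleen, a difference of −2.81 ± 0.36 (adjusted p = 0.0172). For Acsbg1, an acyl-CoA synthetase, it was 1.15 and 3.41, a difference of −2.26 ± 0.28 (adjusted p = 0.0172). The difference for Il23r, 3.29 against 4.57, did not pass (−1.28 ± 0.40, adjusted p = 0.332).

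**Figure D5:**
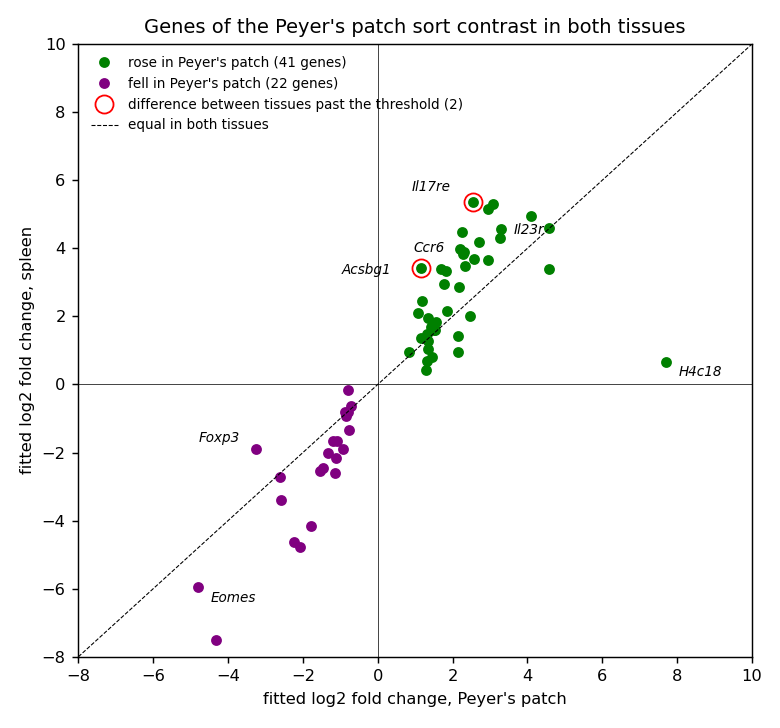
Fitted log2 fold change between ZsGreen+ and ZsGreen− cells in Peyer's patch (horizontal) and spleen (vertical) for the 41 genes that rose (green) and the 22 that fell (purple) in Peyer's patch, with a dashed line of equality and red rings on the 2 genes whose difference between tissues passed the test. All points lie in the upper right or lower left, most of them farther from 0 in spleen, and H4c18 lies far to the right with a fitted value that depends on its 0 counts in ZsGreen− cells of Peyer's patch.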

How the data were processed

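Of 8 libraries of sorted mouse Tfh cells, 4 are from Peyer's patch. The raw tables deposited by the authors hold estimated counts (expected counts) per gene, of which 20.8% to 31.2% in a library are not whole (tolerance 0.01). The normalized tables hold a signal that the authors made by multiplying these counts by 1 constant per library (0.765 to 1.58, relative deviation at most 9.22e-06), used here for 1 alternative only. The submitters' processing notes list Partek, STAR, DESeq2 and mm39, without settings. The extraction was with Trizol per the labels' protocols. Coordinates of genes are those of the files (mm39), and those of promoter windows are GRCm38.p6.

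The estimated counts of the 16735 genes in both experiments' tables were rounded. Genes in 1 table only held at most 0.0597% (experiment 1) and 0.581% (experiment 2) of a Peyer's patch library. edgeR 4.0.16 (R 4.3.3) tested 14418 genes after filterByExpr (minimum count 10, minimum total 15) with TMM scaling and a robust quasi-likelihood model of 4 group means and the experiment, leaving 3 residual degrees of freedom. P-values are two-sided and Benjamini-Hochberg adjusted over these genes, with a threshold of 0.05. The SE is derived from the F statistic. Log2 CPM values have a prior count of 2. The experiment equals the replicate number, and same-numbered libraries deviated together (r = 0.859 between the Peyer's patch sorts, 0.825 to 0.867 over 6 pairs of groups, across genes). Exon overlaps are from GENCODE M21, used for names and shares only. The model was tested on simulated counts. Alternatives were DESeq2 1.42.0, other scalings, filters and spread estimates, no replicate block, Peyer's patch libraries alone and leaving out each library.

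The libraries, the 37 gene lists and the tests were chosen with earlier results of these data known. Named were 15 fixed genes, every gene past the threshold, each list's members past it or its 2 smallest p-values, and the 10 largest folds by the study's criterion at 5 CPM or more. Some genes that the rule names are not reported here. Other genes were named after their values were seen.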

Additional observations from a re-analysis of the deposited data

Results flagged for a closer look

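The effect of the sort differed between tissues, by a test of the difference itself, for 4 genes named in the text. The difference of the log2 fold changes, Peyer's patch minus spleen, was −2.81 for Il17re and −2.26 for Acsbg1, both of which rose in both tissues and by less in Peyer's patch. It was −1.71 ± 0.25 for Il1r1 (adjusted p = 0.0338), whose log2 fold change was 0.66 in Peyer's patch (adjusted p = 0.232) and 2.37 in spleen, where it rose. It was −1.46 ± 0.23 for Slc2a3, which encodes the glucose transporter GLUT3 (adjusted p = 0.0338). Slc2a3 was at 27.3 and 16.7 CPM in ZsGreen− and 19.2 and 11.5 CPM in ZsGreen+ libraries of Peyer's patch (log2 fold change −0.52, adjusted p = 0.353), while it rose in spleen (0.94, adjusted p = 0.00367).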

How the results depend on the processing

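With 2 libraries a sort, counts of calls depended on the fit. The 41 genes up and 22 down became 81 and 66 by DESeq2, 72 and 47 with the Peyer's patch libraries alone, and 0 and 0 with no replicate block. Without the block 72 and 39 genes were past an unadjusted p of 0.05, and the same 72 and 39 met the study's criterion in place of 380 and 281. With a mean count of at least 50 the falling genes by that criterion were 184. The tissue difference called 4 genes higher and 10 lower. This became 57 and 85 by DESeq2, 24 and 23 with no filter, 0 and 0 with no replicate block (49 and 30 at an unadjusted p of 0.05), and 2 and 6 with a non-robust spread. With 1 library left out the ranges were 7 to 56 genes up, 0 to 32 down, 311 to 441 and 205 to 535 by the criterion, and 0 to 71 and 2 to 59 for the tissue difference. Of the 63 called genes DESeq2 kept 63, both other scalings 60, no filter 61, the Peyer's patch libraries alone 57 and the non-robust spread 45. The cause was not tested. No called gene changed sign. Over the fits that left out 1 library each, the uncalled log2 fold changes of 7 genes crossed 0, among those for which the alternatives were run (the genes that the rule on names gives). Their ranges were −2.76 to 1.05 for Adgre1, −3.51 to 0.305 for Ighg2b, −0.817 to 0.0557 for Dusp2, −0.573 to 0.137 for Hspa8, −0.306 to 0.298 for Bcl6, −0.561 to 1.04 for Il2ra and −0.0412 to 0.685 for Icos.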
